A study of Mus musculus with 6 samples.

Results

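The interferon-induced transmembrane (IFITM) family was measured here in long-term hematopoietic stem cells (LT-HSCs) of old mice, through 5 genes taken by symbol: Ifitm1, Ifitm2, Ifitm3, Ifitm6 and Ifitm10. They are 5 of the 55450 genes in the deposited count tables, and all 5 were among the 15610 genes that passed the filter on low counts. The cells came from wild-type (WT) male C57/Bl6 mice of 22 to 24 months, and the labels name no treatment. The sort gate for LT-HSCs was Lin-, Sca1+ and cKit+, then CD48- and CD150+. In 3 mice, CD61High cells (the top 10% of that gate by surface CD61) were compared with CD61Low cells (its bottom 10%), at 5000 cells a library, so that each group has 3 libraries and each mouse gives 1 pair. CD61 is integrin beta 3, a surface partner of integrin alpha 2b on megakaryocytes and platelets, and its gene is Itgb3. The sort is on protein. Libraries are titled by mouse, although the sorting text mentions pools of cells, and the mouse numbers are taken here as animals.

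IFITM proteins are small membrane proteins with a CD225 domain that stop many enveloped viruses at the step where the viral membrane fuses with a membrane of the cell. Most cells make them after interferon binds its receptor and STAT and IRF factors reach the gene, whereas stem cells of several kinds hold some members without added interferon. Ifitm3 acts mainly in endosomes and Ifitm1 mainly at the cell surface, Ifitm6 is known from mouse as a myeloid member, and Ifitm10 is a divergent and little-studied member.

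All 5 genes lie on chromosome 7 of GRCm38. Ifitm2 (ENSMUSG00000060591.9, chr7:140954837-140955987, minus strand), Ifitm1 (ENSMUSG00000025491.14, chr7:140967221-140969825, plus strand), Ifitm3 (ENSMUSG00000025492.6, chr7:141009586-141010770, minus strand) and Ifitm6 (ENSMUSG00000059108.4, chr7:141015699-141017924, minus strand) form a cluster of 63.1 kb. Ifitm10 (ENSMUSG00000045777.14, chr7:142325837-142373753, minus strand) lies 1308 kb beyond Ifitm6.

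Promoter sequences are shown because the results set stem cell members against a myeloid member, and the letters around the starts of Ifitm3, Ifitm2, Ifitm6 and Ifitm1 differ. They are RefSeq sequences of the GRCm38.p6 build, 250 bases before to 50 bases after a start, and all 5 members matched. The stretches below are written 5′ to 3′ along the gene, and capitals mark motif matches. The Ifitm3 stretch begins at base 3 of the RefSeq transcript and lies in exon 1 (chr7:141010715-141010742, minus strand). The Ifitm2 stretch lies just before the RefSeq start, with its last 6 bases in exon 1 of the GENCODE model (chr7:140955982-140956011, minus strand). The Ifitm6 stretch is the 250 bases before the start (chr7:141016893-141017142, minus strand), of which 16 are in a GENCODE exon and the rest in introns of longer Ifitm6 transcripts. The Ifitm1 stretch is the first 202 of its 250 bases (chr7:140967826-140968027, plus strand) and lies in an intron of the longest Ifitm1 transcript, ahead of the GENCODE exons that begin there.
Ifitm3 element: GAAAAGGAAAcTTCTGAGAAACCGAAAc
Ifitm2 element: acagGAAAAGGAAAttgctagagaaagggc
Ifitm6 upstream: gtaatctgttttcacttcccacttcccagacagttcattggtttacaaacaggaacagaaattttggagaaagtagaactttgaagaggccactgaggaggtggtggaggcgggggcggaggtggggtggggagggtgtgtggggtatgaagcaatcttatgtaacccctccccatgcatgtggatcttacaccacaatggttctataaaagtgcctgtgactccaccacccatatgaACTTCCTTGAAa
Ifitm1 upstream: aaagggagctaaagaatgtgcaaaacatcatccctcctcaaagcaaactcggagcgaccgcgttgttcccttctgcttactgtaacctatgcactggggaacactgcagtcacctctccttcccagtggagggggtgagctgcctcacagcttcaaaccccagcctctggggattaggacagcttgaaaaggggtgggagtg

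4 motifs were searched on both strands. The interferon-stimulated response element (ISRE; GAAA, any 2 bases, then GAAA again), which type I interferon uses, was found 2 times in Ifitm3 and 1 time in Ifitm2, and 3.43% of all 32817 RefSeq promoter windows held it. The gamma-activated site (GAS, TTCNNNGAA), which STAT dimers bind, was found in Ifitm3, where it overlaps the second ISRE, and in Ifitm6, against 8.29% of all windows. The PU.1 motif (AGGAAGT), named after a factor of myeloid and B cells, was found on the reverse strand of Ifitm6, where it overlaps the GAS, and at 44 bases into the transcript of Ifitm1, against 9.35% of all windows. The GATA motif (AGATAA) was found in none of the members' windows, against 11.2% of all windows. None of the 4 motifs was found in the 3 windows of Ifitm10. These are matches of letters only.

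The members covered a wide range of levels. Counts per kb of exon, scaled to the same sum in each library (TPM, a scale that corrects for length), averaged 3155 TPM for Ifitm3 over the 6 libraries (range 1848 to 4595), which placed it at rank 22 of 55450 genes. Ifitm1 averaged 1476 TPM (range 449.8 to 3142) and ranked at 44, and Ifitm6 averaged 369 TPM (range 4.14 to 1088) and ranked at 325. Ifitm2 averaged 170 TPM (range 101 to 237) and ranked at 1015, and Ifitm10 averaged 1.64 TPM (range 0.0903 to 3.95) and ranked at 14012. Ifitm3 was thus the most abundant and Ifitm10 the least abundant member in every library, whereas the order of Ifitm1, Ifitm6 and Ifitm2 changed between libraries. Per length, Ifitm6 exceeded Ifitm1 in both libraries of mouse 2 and lay below it in the other 4. In mouse 1, Ifitm6 lay below Ifitm2 in CD61High (53.6 against 160 TPM) and above it in CD61Low (284 against 170 TPM). The level of Ifitm2 is uncertain, because 40.9% of its exon bases are also annotated to the read-through model Gm45717. Reads in such bases are left out of the counts, and over the other exon bases Ifitm2 averaged 287.5 TPM.

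Libraries held 21354130 to 26398090 counts on genes. With so many counts, counting error is small beside the spread between mice, but for Ifitm10 it limits the difference within mouse 3. A count of 0 would allow up to 3 counts, or 0.114 to 0.140 CPM (counts per library, brought to the same total). Unless TPM is named, levels below are CPM adjusted by the trimmed mean of M-values (TMM), a scaling that assumes that most genes do not differ. A log2 fold change is CD61High over CD61Low, with its standard error (SE), from edgeR's quasi-likelihood test, and adjusted p-values are Benjamini-Hochberg values over all 15610 genes. Each gene was tested without and with the mouse as a block, the second fit being the paired comparison.

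All 5 members were lower in CD61High than in CD61Low cells of the same mouse in 3 of 3 mice, a pattern shared by 24.7% of the genes tested, although the sign in mouse 2 turned for Ifitm2 and Ifitm3 on other scales given below. None of the 5 was called at an adjusted p under 0.05 without the block, where edgeR called 0 of 15610 genes (0%) and 1023 genes (6.55%) had an unadjusted p under 0.05. DESeq2 called 237 genes (1.52%) and limma voom called 0 (0%), and neither called a member. With the block, edgeR called 40 genes (0.256%) and again 0 members, while 3 of the 5 (Ifitm1, Ifitm6 and Ifitm10) had an unadjusted p under 0.05, as 20.8% of all genes did. All 3 were lower, as 12.8% of all genes were at that level. The summed counts of the 5 members were 0.123%, 0.101% and 0.0974% of all counts in CD61High libraries of mice 1, 2 and 3, against 0.166%, 0.131% and 0.190% in CD61Low libraries. Every CD61High library therefore gave the family a smaller share of its counts than any CD61Low library did. Of single genes, 5.71% had no overlap in this direction in TMM-adjusted CPM. Ifitm1 and Ifitm3 together held most of the family's counts in each library, so the sum says little about the other members. Per length, the family's sum was 5176, 3403 and 4479 TPM in CD61High libraries, against 6425, 3547 and 7998 TPM in CD61Low libraries, and on that scale the groups overlapped.

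**Figure D1:**
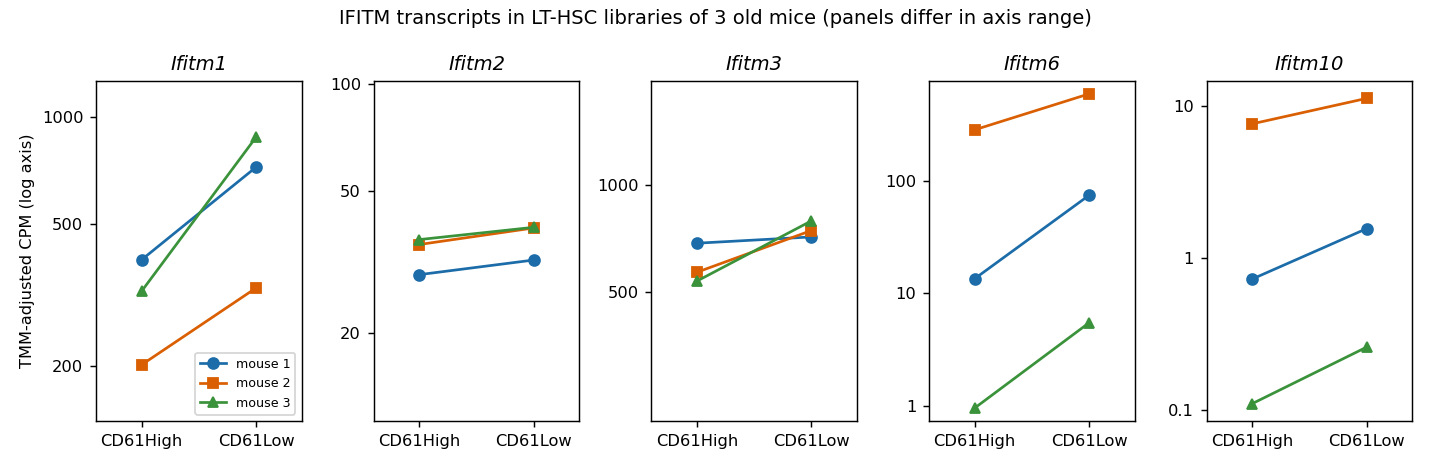
Level of each IFITM gene (TMM-adjusted CPM, log axis, axis ranges differ) in CD61High and CD61Low LT-HSCs of 3 mice; each point is 1 library and each line joins the libraries of 1 mouse. All lines end higher in CD61Low, and Ifitm6 and Ifitm10 differ far more between mice than between the groups.

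Ifitm1, the surface member, had the larger difference of the pair of most abundant members. It had 397, 201 and 324 CPM in CD61High libraries of mice 1, 2 and 3, against 722, 331 and 876 CPM in CD61Low libraries. The libraries of mouse 2 were the lowest of each group, and the groups overlapped, since CD61High of mouse 1 stood above CD61Low of mouse 2. The means were 307 ± 98.8 CPM in CD61High and 643 ± 281 CPM in CD61Low (SD, n = 3 each). The log2 fold change was -1.07 (SE 0.43, edgeR adjusted p = 0.752), while the paired fit gave -1.005 (SE 0.18, adjusted p = 0.0653). Within mice, the difference in log2 CPM was -0.86, -0.72 and -1.44. The size in mouse 2 depends on the scale, since it was -0.44 with total counts alone and -0.17 in TPM. Ifitm1 thus missed the threshold in edgeR with all 6 libraries, both without and with the block. It was called with the block by DESeq2 (log2 fold change -1.03, adjusted p = 1.6e-05), where 10% of all genes were called.

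Ifitm3, the endosomal member, was lower by a smaller amount. It had 688, 570 and 538 CPM in CD61High libraries, against 716, 746 and 794 CPM in CD61Low libraries. The groups did not overlap on this scale, which 5.71% of all genes also showed in this direction, but the pair of mouse 1 was nearly level. With total counts alone and in TPM the groups overlapped. CD61High of mouse 1 (748 CPM of total counts, 3655 TPM) then stood above CD61Low of mouse 2 (571 CPM of total counts, 1848 TPM). The means were 599 ± 78.6 CPM in CD61High and 752 ± 39.4 CPM in CD61Low (SD, n = 3 each). The log2 fold change was -0.33 (SE 0.16, edgeR adjusted p = 0.760), and with the block it was -0.34 (SE 0.16, adjusted p = 0.281). Within mice, log2 CPM differed by -0.06, -0.39 and -0.56. In TPM, the difference in mouse 2 was 0.15 on the log2 scale, higher in CD61High, so the direction in that mouse depends on the scaling.

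Ifitm2 had 29.2, 35.4 and 36.6 CPM in CD61High libraries, against 32.1, 39.4 and 39.6 CPM in CD61Low libraries. Each CD61High value lay slightly under its partner, and the groups overlapped. The log2 fold change was -0.13 (SE 0.18, edgeR adjusted p = 0.940; with the block SE 0.14, adjusted p = 0.626). With total counts alone as the scaling, the difference in mouse 2 was 0.12 on the log2 scale, and in TPM it was 0.39, both higher in CD61High, so no direction can be given for Ifitm2 in that mouse.

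Ifitm6, the myeloid member, varied above all with the mouse. It had 13.5, 282 and 0.960 CPM in CD61High libraries of mice 1, 2 and 3, against 73.9, 586 and 5.47 CPM in CD61Low libraries. The highest library, CD61Low of mouse 2, held 611 times the level of the lowest, CD61High of mouse 3, whereas the same span was 4.36 for Ifitm1, 1.48 for Ifitm3 and 1.36 for Ifitm2. The groups overlapped, with means of 98.7 ± 159 CPM in CD61High and 222 ± 318 CPM in CD61Low (SD, n = 3 each). Without the block, the log2 fold change was -1.17 (SE 2.10, edgeR adjusted p = 0.940). That value rests on single libraries, since it was 1.31 without CD61Low of mouse 2, -4.95 without CD61High of mouse 2, -0.58 without CD61High of mouse 1 and -0.52 without CD61High of mouse 3. With the block, the spread between mice no longer entered, and the log2 fold change was -1.93 (SE 0.33, edgeR adjusted p = 0.0664), again short of the threshold. Within mice, log2 CPM differed by -2.45, -1.06 and -2.42, and in mouse 2 the difference was -0.79 with total counts alone and -0.52 in TPM. DESeq2 with the block called Ifitm6 (log2 fold change -1.99, adjusted p = 4.7e-08).

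Ifitm10 was near the limit of detection in mouse 3. It had 17, 176 and 3 counts in CD61High libraries, against 43, 228 and 7 counts in CD61Low libraries, or 0.731, 7.67 and 0.111 CPM against 1.57, 11.3 and 0.261 CPM. In mouse 3 the ratio of CD61High to CD61Low per total counts was 0.415 (95% exact interval 0.0692 to 1.82, counting error only), so a difference in that mouse was not detectable at this depth. The log2 fold change was -0.62 (SE 1.72, edgeR adjusted p = 0.951), and with the block it was -0.86 (SE 0.35, adjusted p = 0.237). Without the block, leaving out 1 library at a time gave -3.37 to 1.63, and the sign turned without CD61Low of mouse 2 (1.63) as well as when CD61High of mouse 3 was left out (0.0073). Like Ifitm6, it was highest in both libraries of mouse 2 and lowest in both of mouse 3.

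**Figure D2:**
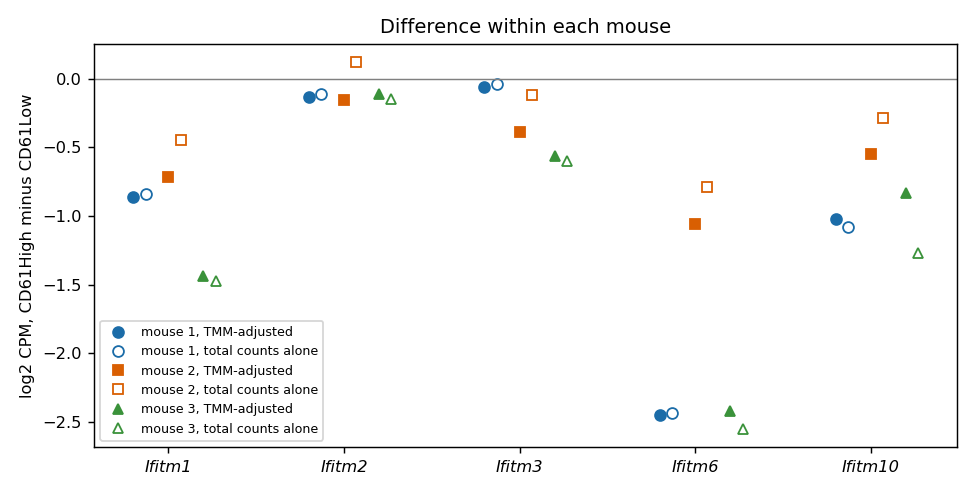
Difference in log2 CPM, CD61High minus CD61Low, for each member within each mouse, scaled by TMM (filled) or by total counts alone (open); each point is 1 mouse. Ifitm1, Ifitm3, Ifitm6 and Ifitm10 lie below 0 in all 3 mice under both scalings (for Ifitm10 of mouse 3 from 3 and 7 counts), and Ifitm2 of mouse 2 changes side.

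Mouse 2 stood apart from the other mice, and leaving it out changed the calls of Ifitm1 and Ifitm6. Without both of its libraries, the fit with the block called 742 of 15548 genes (4.77%), among them Ifitm1 (log2 fold change -1.17, edgeR adjusted p = 0.0299) and Ifitm6 (log2 fold change -2.50, SE 0.19, adjusted p = 0.0162). Without the block, that setting called 133 genes (0.855%) and, of the members, Ifitm1 alone (log2 fold change -1.17, SE 0.15, edgeR adjusted p = 0.0494). The fit with the block called 0 members without mouse 1, where it called 0 of 15967 genes (0%), and 0 members without mouse 3, where it called 7 of 16106 genes (0.0435%).

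A ratio of members within a library needs no scaling between libraries. Per length, there were 0.358, 0.219 and 0.373 Ifitm1 transcripts per Ifitm3 transcript in CD61High libraries of mice 1, 2 and 3, against 0.625, 0.274 and 0.684 in CD61Low libraries. The log2 ratio differed by -0.80, -0.33 and -0.88, lower in CD61High in 3 of 3 mice, and an exact paired permutation test over 3 pairs cannot go below p = 0.25. Ifitm1 was thus lower relative to Ifitm3 in each mouse as well. Ifitm2 per Ifitm3 gave log2 differences of -0.08, 0.23 and 0.45, with no shared direction. Ifitm6 per Ifitm1 was 0.0410, 1.69 and 0.00358 in CD61High libraries, against 0.124, 2.14 and 0.00755 in CD61Low libraries. In shares of the family's TPM, Ifitm3 made up 70.6%, 60.4% and 69.2% in CD61High libraries, against 57.2%, 52.1% and 57.5% in CD61Low libraries. Ifitm1 made up 25.2%, 13.2% and 25.8% in CD61High libraries, against 35.7%, 14.3% and 39.3% in CD61Low libraries. Ifitm6 made up 1.04%, 22.4% and 0.0925% in CD61High libraries, against 4.42%, 30.7% and 0.297% in CD61Low libraries. Ifitm3 thus held more of the family in every CD61High library than in any CD61Low library, whereas the shares of Ifitm1 and Ifitm6 overlapped between the groups. Since the shares of a library sum to a whole, a larger Ifitm3 share does not mean more Ifitm3, whose TMM-adjusted CPM was lower in CD61High.

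Markers of neutrophils and monocytes moved with Ifitm6. The 20 neutrophil markers, which include the granule and antimicrobial genes S100a8, S100a9, Ngp and Ltf, took 0.593%, 7.76% and 0.0432% of all counts in CD61High libraries, against 2.30%, 12.4% and 0.220% in CD61Low libraries. All 20 were lower in CD61High in 3 of 3 mice, as was Ifitm6, and Ms4a3, a gene of granulocyte-monocyte progenitors, was called with the block (log2 fold change -1.30, edgeR adjusted p = 0.0464). Of the 20 markers, only Ctsg was at 0, in CD61High of mouse 3. The 14 monocyte markers, among them Lyz2, Ly6c2 and F13a1, took 0.132%, 0.960% and 0.0401% in CD61High libraries, against 0.394%, 1.499% and 0.0584% in CD61Low libraries, and none was at 0. Of the other mature lineages, 5 of 8 basophil and mast cell markers, 10 of 12 B lineage markers, 5 of 11 T and NK cell markers and 11 of 12 erythroid markers tested were lower in CD61High in 3 of 3 mice, and none was higher in 3 of 3. In mouse 3, 2 summed shares went the other way from Ifitm6. T and NK cell markers took 0.00652% in CD61High against 0.00214% in CD61Low, and basophil and mast cell markers 0.00152% against 0.00131%. Iglc2, an immunoglobulin light chain gene, and Tspo2, an erythroid gene, were called with the block (log2 fold changes -2.10 and -1.48, edgeR adjusted p = 0.0436 and 0.0489). Their part in the difference in Ifitm6 was not tested. In these bulk samples, fewer cells of a type and less RNA per cell cannot be told apart.

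Relative to the neutrophil markers, Ifitm6 varied little. It had 0.247, 0.336 and 0.241 counts per 100 neutrophil marker counts in CD61High libraries, against 0.344, 0.361 and 0.276 in CD61Low libraries. The span of these 6 values was 1.499-fold, where the span of Ifitm6 itself was 611-fold, and the groups overlapped. Each CD61High value lay under its partner, but without 5 genes that progenitors also express (Elane, Mpo, Prtn3, Ctsg and Ms4a3) mouse 3 had 0.399 in CD61High and 0.349 in CD61Low. Per 100 monocyte marker counts, Ifitm6 had 1.11, 2.71 and 0.259 counts in CD61High libraries, against 2.01, 2.99 and 1.04 in CD61Low libraries, a span of 11.6-fold. Lyz2 alone held most of the monocyte marker counts in each library. In CD61High of mouse 3 it had 349 CPM, where the next marker, Fn1, had 6.43 CPM. This span therefore depends mainly on Lyz2, and a span without Lyz2 was not computed. Csf1r, another of these markers, is among the genes most like Ifitm6 given below.

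**Figure D3:**
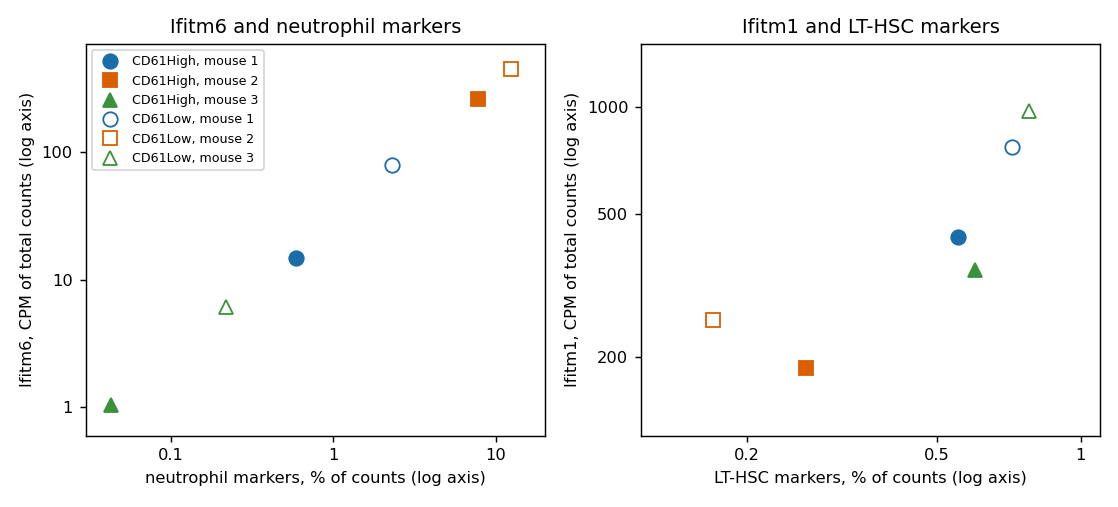
Level of Ifitm6 against the summed share of 20 neutrophil markers (left) and of Ifitm1 against that of 16 LT-HSC markers (right) in the 6 libraries, as CPM of total counts, on log axes; filled symbols are CD61High and open symbols CD61Low. Ifitm6 lies along 1 line through both groups. Relative to the LT-HSC marker share, Ifitm1 was higher in every CD61Low library than in any CD61High library, but the marker shares themselves differed between the libraries.

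Ifitm1 and Ifitm3, taken as the stem cell members, were set against LT-HSC markers in the same way. All 16 LT-HSC markers passed the filter on low counts, among them Kit, Gata2 and Meis1, and took 0.553%, 0.266% and 0.600% of counts in CD61High libraries, against 0.717%, 0.170% and 0.780% in CD61Low libraries. Mouse 2 had the lowest share in both groups. Ifitm1 had 7.80, 6.98 and 5.84 counts per 100 LT-HSC marker counts in CD61High libraries, against 10.8, 14.9 and 12.5 in CD61Low libraries. The groups did not overlap, as was so in this direction for 2.8% of all genes on that scale. With 3 libraries against 3, an exact test cannot go below p = 0.1. Of these markers, Procr, the receptor of protein C, and Ly6a, which encodes Sca1, were called lower with the block (log2 fold changes -1.25 and -1.34, edgeR adjusted p = 0.0436 and 0.0446). Without both, Ifitm1 still had 8.17, 7.27 and 6.03 in CD61High libraries, against 11.7, 16.7 and 13.4 in CD61Low libraries, and 3.52% of all genes had no overlap in this direction on that scale. Ifitm3 behaved differently per 100 LT-HSC marker counts, with 13.5, 19.8 and 9.71 in CD61High libraries, against 10.7, 33.6 and 11.3 in CD61Low libraries. It was higher in CD61High of mouse 1 and lower in the other mice, and the groups overlapped.

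**Figure D4:**
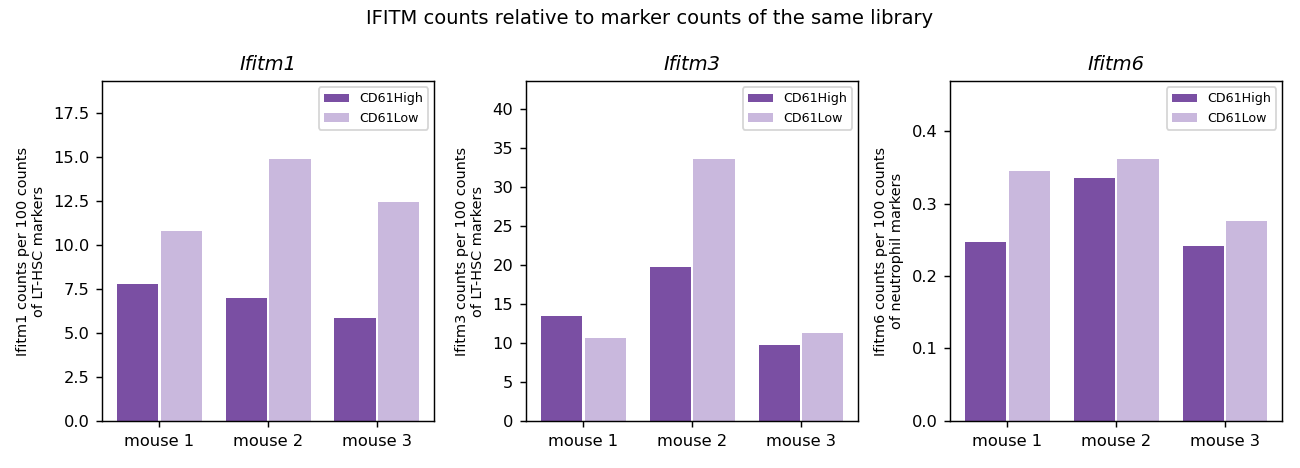
Counts of Ifitm1 and Ifitm3 per 100 LT-HSC marker counts, and of Ifitm6 per 100 neutrophil marker counts, in CD61High (dark) and CD61Low (light) libraries of each mouse; each bar is 1 library and starts at 0. All CD61High bars of Ifitm1 are under all CD61Low bars, Ifitm3 differs in direction between mice, and Ifitm6 stays within a 1.499-fold span.

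The gene of the sorted marker was called in neither fit, while that of its partner was called with the block alone. Itgb3 averaged 191 ± 45.4 CPM in CD61High and 253 ± 110 CPM in CD61Low (SD, n = 3 each). Without the block its edgeR adjusted p was 0.926, beside 0.652 for Itga2b in that fit. The RNA of Itgb3 thus does not check the labels of a sort on surface protein. Itga2b, which encodes the alpha 2b partner, was called higher in CD61High with the block (log2 fold change 2.42, adjusted p = 0.0308), as were the platelet receptor genes Gp5 (log2 fold change 1.499, adjusted p = 0.0436) and Gp9 (log2 fold change 1.42, adjusted p = 0.0436). Of 8 megakaryocyte and platelet markers tested, 6 were higher and 0 lower in CD61High in 3 of 3 mice, and of the 16 LT-HSC markers 2 were higher and 7 lower.

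The interferon pathway was examined beside the family through 2 lists. Of 20 receptor and signalling genes tested, 0 were called without or with the block, and 13 were lower and 1 was higher in CD61High in 3 of 3 mice, where 24.7% of all genes were lower and 20.6% higher. The median log2 fold change was -0.22, against -0.05 for all genes, and with the block it was -0.20, against -0.02. With the block, 6 of the 20 genes had an unadjusted p under 0.05, all of them lower, beside the 12.8% of all genes that were lower at that level. Ifngr1, the ligand-binding chain of the interferon gamma receptor, averaged 243 ± 73.5 CPM in CD61High and 319 ± 93.9 CPM in CD61Low. Jak1, a kinase on interferon receptors, averaged 718 ± 61.1 CPM in CD61High and 806 ± 116 CPM in CD61Low. Jak2, which pairs with it on the gamma receptor, averaged 162 ± 39.8 CPM in CD61High and 170 ± 24.2 CPM in CD61Low. Irf1, a factor that binds ISREs, averaged 121 ± 8.06 CPM in CD61High and 152 ± 22.4 CPM in CD61Low (SD, n = 3 each for these genes). None of these 4 differences passed the test.

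Of 40 interferon-stimulated effector genes, 39 passed the filter on low counts and 0 were called in either fit. The median log2 fold change of the 39 was -0.33, and -0.30 with the block. In 3 of 3 mice, 20 were lower and 4 higher in CD61High, and 13 had an unadjusted p under 0.05 with the block, beside 20.8% of all genes. Of those 13, 11 were lower, as 12.8% of all genes were at that level, and 2 were higher. Ly6e, a surface protein that also acts on virus entry, averaged 1175 ± 145 CPM in CD61High and 1439 ± 61.5 CPM in CD61Low. Shisa5, a membrane protein of the endoplasmic reticulum, averaged 431 ± 58.6 CPM in CD61High and 638 ± 97.1 CPM in CD61Low (log2 fold change -0.57, SE 0.19, edgeR adjusted p = 0.683; with the block adjusted p = 0.0920). Groups without overlap were found for 7 of the 39 genes lower in CD61High, Ly6e and Shisa5 among them, and for 2 higher. Of all genes, 5.71% and 8.62% had no overlap in these directions. Irgm1, an immunity-related GTPase, averaged 154 ± 16.3 CPM in CD61High and 174 ± 33.9 CPM in CD61Low. Samhd1, a nucleotide hydrolase that limits retroviruses, averaged 111 ± 85.0 CPM in CD61High and 179 ± 155 CPM in CD61Low, with its highest values in mouse 2 (SD, n = 3 each for these genes). Several genes of both lists, Samhd1 among them, are also expressed by mature myeloid cells, whose markers differed in the same direction as given above; their part in these values was not tested.

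Genes whose products modify or bind IFITM3 gave no shared direction. Of 13 tested, 0 were called, 2 were lower and 4 higher in CD61High in 3 of 3 mice, and the median log2 fold change was 0.03. Nedd4, the ubiquitin ligase that marks IFITM3 for degradation, averaged 860 ± 187 CPM in CD61High and 841 ± 368 CPM in CD61Low. Cd81, a tetraspanin of the complex with IFITM proteins, averaged 530 ± 81.5 CPM in CD61High and 579 ± 99.0 CPM in CD61Low. Cd9, a related tetraspanin, averaged 342 ± 102 CPM in CD61High and 340 ± 138 CPM in CD61Low. Vapa, a partner at the endoplasmic reticulum, averaged 290 ± 31.7 CPM in CD61High and 285 ± 76.6 CPM in CD61Low (SD, n = 3 each for these genes). All 4 had groups that overlapped. Of 9 other CD225-domain genes, 3 passed the filter (Ifitm7, Prrt1 and Prrt2), all under 3 CPM on average in either group, and 0 were called. Ifitm5, the osteoblast member beside Ifitm2, had 30 counts in all 6 libraries and did not pass.

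**Figure D5:**
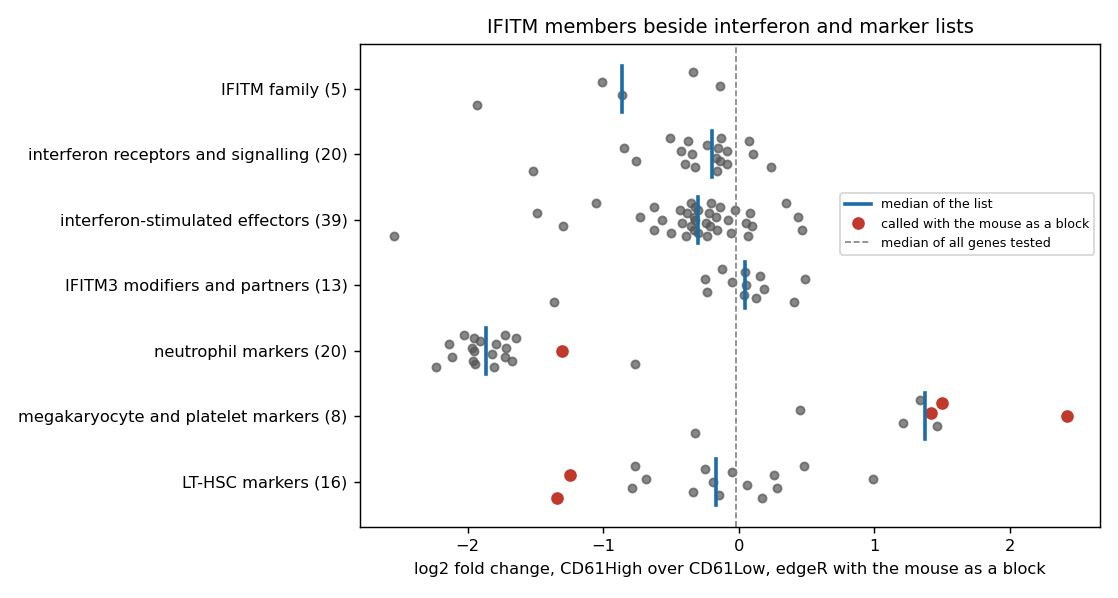
Log2 fold change, CD61High over CD61Low, with the mouse as a block, for the tested genes of 7 lists; each point is 1 gene, bars are list medians, large points are genes called and the dashed line is the median of all genes. The IFITM members range from -1.93 to -0.13, the neutrophil markers lie lowest and the megakaryocyte and platelet markers highest.

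Other genes around the IFITM cluster showed no common direction. Within 100 kb of the 4 clustered members, 20 other genes are annotated and 11 passed the filter. Of the 11, 0 were called, 2 were lower and 2 higher in CD61High in 3 of 3 mice, and the log2 fold changes ran from -0.34 for Bet1l to 0.21 for Gm15542, with a median of 0.06. Around Ifitm10, 3 of 16 genes passed: Ctsd, a lysosomal protease, with a log2 fold change of -0.38, Tnni2, a muscle troponin, with -0.82, and Lsp1, a leukocyte actin-binding protein, with -0.83, none of them called.

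The genes whose levels were most like those of each member, by Pearson's r of log2 CPM over the 6 libraries among 10627 genes of at least 5 CPM, are given as a description; libraries of a mouse share the animal. Nearest to Ifitm6 were Plbd1, C5ar1 and Csf1r, each with r = 0.9998, and 758 genes had an r above 0.9. Csf1r is the receptor of colony-stimulating factor 1 and one of the monocyte markers above, and C5ar1 is the receptor of complement C5a. Nearest to Ifitm1 were Extl1 (r = 0.996), Spry4 (r = 0.996) and Lzts1 (r = 0.994), and 491 genes had an r above 0.9. Nearest to Ifitm3 were Sytl1, Smg1 and B3galt4, each with r = 0.980, among 53 genes above 0.9, and nearest to Ifitm2 were Tbc1d10c (r = 0.994), Stk40 (r = 0.978) and Ggct (r = 0.975), among 30. Ifitm10, under 5 CPM, was not ranked. Among the members, Ifitm6 and Ifitm10 varied together (r = 0.985) and Ifitm1 and Ifitm3 did less so (r = 0.730), while r was -0.33 between Ifitm1 and Ifitm6 and 0.238 between Ifitm3 and Ifitm6.

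Ifitm1 and Ifitm3 are similar in sequence, and the counting left out reads that match more than 1 place. Of 50-base windows of the longest transcript, 6.36% of Ifitm1, 10.0% of Ifitm3, 48.5% of Ifitm2, 0% of Ifitm6 and 5.00% of Ifitm10 also occur in another annotated gene. For 100-base windows the shares were 0% for Ifitm1, Ifitm3 and Ifitm6, 34.9% for Ifitm2 and 3.56% for Ifitm10. Levels of Ifitm1, Ifitm3 and Ifitm6 can thus be told apart over most of their length, and Ifitm2 remains the uncertain member.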

How the data were processed

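Per the labels' protocols, 5000 sorted cells per library gave RNA that was amplified with SMART-Seq v4 and made into libraries with Nextera XT, neither of which marks strand. The authors deposited raw counts of reads per gene. The tools named in the submitters' processing notes are STAR 2.7, edgeR and MultiQC; a genome build is not given in the sources used here. All 55450 gene identifiers are those of GENCODE M21 on GRCm38, which supplied symbols, coordinates and exon lengths. Unstranded counts were used (49.9% to 50.0% of stranded counts on the first strand). Multimapping reads (10.0% to 15.6% of a library), ambiguous reads (3.55% to 4.37%), reads outside genes (2.88% to 4.21%) and unmapped reads (4.36% to 10.9%) stayed out, and without strand, reads of antisense partners cannot be told apart. The table of the whole series holds 17500 genes and 0 values that differ from the library tables. No 2 libraries agreed within sampling noise (lowest chi-square per degree of freedom 40.6).

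Tests used edgeR 4.0.16 under R 4.3.3 (TMM, filterByExpr, robust quasi-likelihood, two-sided, Benjamini-Hochberg over all genes kept), after a run on simulated data; SEs were derived from the F statistic, and log2 CPM carries a prior count of 2. The fit without a block is the main one, because no source says that the authors' test modelled the mouse, and the fit with the mouse as a block stands beside it. The mouse numbers pair libraries, since the titles give the same mouse: deviations from group means correlated at 0.364, 0.864 and 0.853 within mice 1, 2 and 3, and from -0.90 to 0.449 between mice. Alternatives were DESeq2 1.42.0, limma 3.58.1 voom, other scalings, no filter and libraries left out. Shares of counts carry 95% Wilson intervals within 1.97% of the share; floors and intervals cover counting error only.

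The members and the 13 lists were chosen with earlier results of these data known, so the lists are described by counts and medians and not tested. Genes named are the members, the 3 genes most like each member, filtered genes within 100 kb, the 4 most abundant genes of each list, any list gene called, and Itgb3; 1 gene that the rule names is not reported here. Examples of marker lists, genes left out of a list and genes listed by a single alternative are named beyond that rule.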

Additional observations from a re-analysis of the deposited data

How the results depend on the processing

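The fit without a block, with 0 genes, 0 members and 0 interferon list genes called, changed under some alternatives and not under others. Genes called were 237 by DESeq2, 1566 by DESeq2 with the replicate block, 40 with edgeR's replicate block (8 with upper-quartile and 88 with RLE factors, and 0 with library sizes alone), 133 without both libraries of mouse 2 and, over fits with mice or libraries left out, between 0 and 742; the 742 came with the block and without mouse 2, and 7 were called with the block and without mouse 3, against 0 with the block and without mouse 1. Members called were 2 (Ifitm1 and Ifitm6) by DESeq2 with the block, 1 (Ifitm1) without mouse 2 and no block, and between 0 and 2 over the fits with mice or libraries left out. The 2 interferon lists had 20 and 39 genes tested in the main fit. Interferon list genes called were 7 by DESeq2 with the block (Ifit3, Ifngr1, Ifngr2, Irf8, Parp14, Samhd1 and Shisa5), where 10% of all genes were called. Between 0 and 2 were called with mice or libraries left out. The 2 were Irf8 and Shisa5, with the block and without mouse 2, where 4.77% of all genes were called. The block changed no call of a member in edgeR with all 6 libraries. Leaving out mice or libraries gave log2 fold changes of -1.38 to -0.79 for Ifitm1, -0.24 to -0.06 for Ifitm2, -0.48 to -0.23 for Ifitm3, -4.95 to 1.31 for Ifitm6 and -3.37 to 1.63 for Ifitm10. The signs turned without CD61Low of mouse 2 (1.31 for Ifitm6, 1.63 for Ifitm10) and without CD61High of mouse 3 (0.0073 for Ifitm10), fits that have no block and leave a pair broken. Where 1 mouse was left out, each group kept 2 libraries. Ifitm2 stood at 287.5 TPM over exon bases shared with no other gene, against 170 TPM. Ifitm6 averaged 0.354 counts per 100 counts of neutrophil markers without the genes that progenitors also express, against 0.301. No scaling moved the median log2 fold change of all genes by over 0.1 against the TMM fit with the same block. The causes were not tested. Depth limits Ifitm10 alone among the members. The measure of Ifitm1 and Ifitm3 per LT-HSC marker counts, and the alternatives that add RLE, upper-quartile or no factors to the block, that leave out mouse 2 with no block, and that change the marker lists or exon bases were chosen after seeing the data.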
